A study of Rattus norvegicus with 24 samples.

Results

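The average effect of dihydrotestosterone (DHT) over prostate, skin and forebrain of castrated male rats was examined, and within it the genes that moved in the same direction in all 3 tissues. DHT is a strong androgen that cells cannot turn into estrogen. The contrast rests on 17 of the 24 arrays of the study: 3 DHT and 3 vehicle arrays of prostate, 3 and 3 of skin, and 3 DHT and 2 vehicle arrays of forebrain. Forebrain vehicle array 3 had failed quality control, per its label. The 6 ovary arrays of intact females were left out of the average. All males were Sprague-Dawley rats of 12 weeks, castrated 3 days before a single intraperitoneal injection, and tissue was taken 16 h after 10 mg/kg DHT or vehicle. Vehicle animals were castrated too, so each comparison is of castrated males with and without DHT. The main set is the genes that pass the test of the average effect and have 1 sign in the 3 tissues, 131 of the 20777 tested. Genes with mixed signs, and some that do not pass, are described beside them.

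Steroid hormones act through ligand-activated transcription factors. These receptors are held ready for hormone by heat shock protein chaperones and their co-chaperones, and after hormone binding they act on chromatin. Much of what androgen induces is particular to one tissue, such as secretory proteins in prostate, while a smaller set of genes, among them Fkbp5 and Zbtb16, responds to androgens and glucocorticoids in many cell types.

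Levels are log2 of the background-subtracted signal minus the 75th percentile of the array, so that a level of 0 equals that percentile. On the 17 arrays, between 54.6% and 87.5% of probes were well above background. Skin arrays were dimmer, with a 75th percentile signal of 55.4 to 379, against 486 to 2234 in prostate and 516 to 1382 in forebrain. A low scaled level in skin can therefore lie close to background. The tissue labels matched their markers: 5 keratinocyte genes had a mean level of 5.33 ± 0.48 (SD, n = 3) in vehicle skin and -3.84 ± 0.78 (n = 2) in vehicle forebrain, and 11 neuronal genes averaged 2.93 ± 0.06 (n = 2) in forebrain and -4.73 ± 0.84 (n = 3) in prostate of vehicle animals. Over 12 prostate secretory genes the mean level was -0.87 ± 0.82 (n = 3) in prostate and -3.41 ± 0.56 (n = 3) in skin of vehicle animals. Several arrays stood apart. Skin vehicle array 1 had a mean level of -1.93 over 10 skeletal muscle genes, against 8.35 to 10.8 on the other 5 skin arrays. The 11 neuronal genes averaged -0.92 on skin vehicle array 2, against -4.61 to -2.78 on the other 5 skin arrays. On prostate vehicle array 3 the scanner software marked 1531 spots as outliers (2 to 273 on the remaining prostate arrays). In forebrain, 13 of 13 choroid plexus genes measured lay lower on the DHT arrays, with groups that did not overlap in 11. Over the 26361 genes measured in forebrain, 24.2% were lower without overlap. The mean level of the choroid plexus genes was -1.23 and 0.53 on the vehicle arrays and between -4.11 and -3.32 on the DHT arrays. The transthyretin gene Ttr, the defining transcript of that epithelium, stood at 4.89 and 7.23 with vehicle and at -2.18, -2.55 and -3.20 with DHT. Skeletal muscle genes moved with treatment in forebrain as well, from 0.29 and 0.28 with vehicle to between -2.44 and -1.45 with DHT. Each slide carried 1 array of each tissue and arrays of 1 treatment, so slide and treatment cannot be told apart. The labels do not say whether tissues of the same number came from the same animal, and deviations from group means correlated by more than 0.1 in 13 of the 16 pairs of arrays on the same slide. Among 96 pairs from different groups and slides, without same-numbered pairs of a tissue, 20 did so. The median correlation was 0.22 on the same slide and -0.002 in those 96 pairs. In whole tissue, fewer cells of a type and less RNA per cell cannot be told apart either. The p-values below come from limma with slide as a random block and measure the spread between these samples.

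Averaged over the 3 tissues, DHT changed 188 genes, 119 upward and 69 downward, at an adjusted p under 0.05. That is 0.905% of the genes tested, 0.573% higher and 0.332% lower. The number rests on the fit over single arrays: with arrays averaged over each of the 5 slides that held all 3 tissues, the unit in which treatment varies, 0 genes passed (limma, smallest adjusted p 0.204, 3111 at an unadjusted p below 0.05). With forebrain vehicle array 3 put back 8 passed, and with no filter on dim probes 1. Of the 188 genes, 67 had a gene symbol, 46 higher and 21 lower. The same sign in all 3 tissues was found for 131 of the 188 (0.631% of all genes tested), 82 higher and 49 lower, and 41 of them had a symbol. Over all genes tested 23.2% had the same sign in all 3, but a gene picked for a large average has 1 sign more often by construction, and nothing is read from that difference. The median size of the average effect was 0.79 log2 units, or 1.73-fold, among the 188 genes. The smallest p belonged to a transcript without a symbol here, with an average of 0.98 ± 0.10 (SE, adjusted p = 0.00148) and effects of 1.86 in prostate, 0.62 in skin and 0.46 in forebrain.

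Most of the size of these averages came from prostate. The largest of the 3 effects was the prostate one in 150 of the 188 genes, the skin one in 19 and the forebrain one in 19, while over all genes tested prostate held the largest in 37.5%. The median absolute effect of the 188 genes was 1.45 log2 units in prostate, 0.37 in skin and 0.43 in forebrain. Taken singly in the same fit, 166 of the 188 passed in prostate, 5 in skin and 4 in forebrain. Over all genes, 1793 passed in prostate (5.14% higher and 3.49% lower), 6 in skin (0.0144% each way) and 7 in forebrain (all lower, 0.0337%). With each tissue fitted alone, 2288 of 23738 genes passed in prostate, 0 of 24122 in skin and 0 of 26361 in forebrain (limma). At an unadjusted p under 0.05 there were 6561, 1192 and 7234. The calls in skin and forebrain thus rest on the fit over all 3 tissues. With prostate left out, 0 of 22146 genes passed the average of skin and forebrain (limma, smallest adjusted p 0.105). An unadjusted p below 0.05 was seen for 1649.

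**Figure D1:**
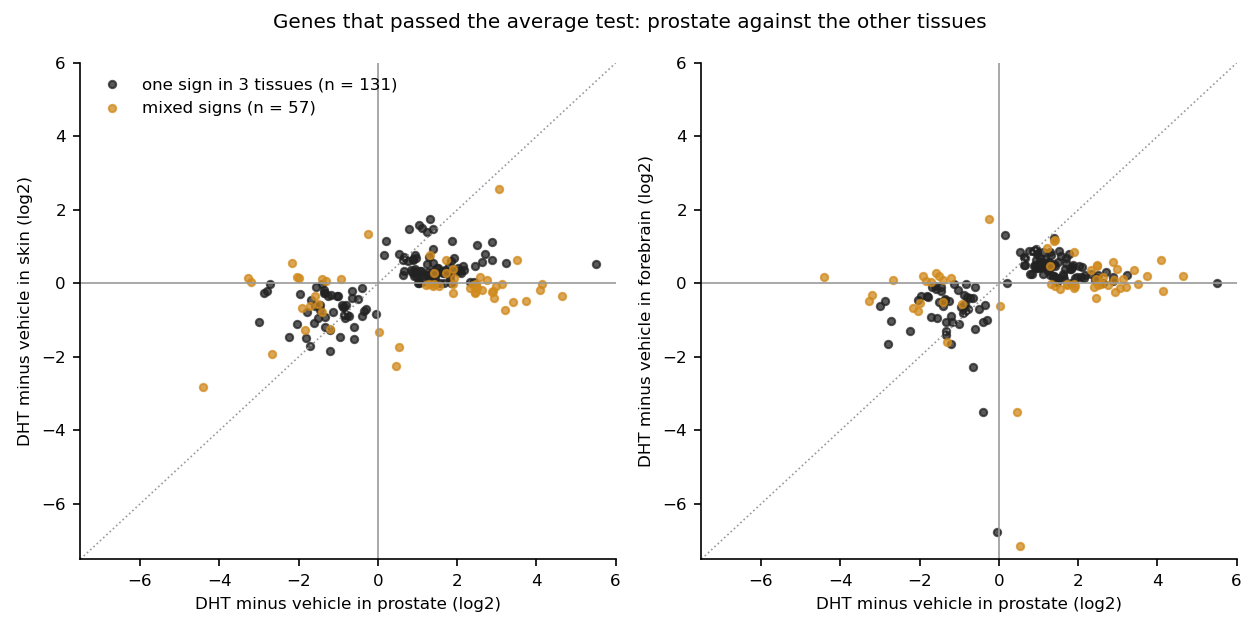
DHT effects (DHT minus vehicle, log2) of the 188 genes that passed the average test, prostate on the horizontal axis and skin (left) or forebrain (right) on the vertical axis. Black points are the 131 genes with the same sign in all 3 tissues, orange points the 57 with mixed signs, and most lie nearer to the horizontal axis than to the dotted line of equal effects.

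A stricter test asked for each tissue on its own, by taking the largest of the 3 p-values. No gene passed it after adjustment (0 of 20777, limma). At an unadjusted p under 0.05 in every tissue with the same sign there were 34 genes (0.164%), 18 higher and 16 lower, and 23 of them were among the 188. The effects differed between tissues by the moderated F test in 1476 genes (7.1%), among them 114 of the 188 and 58 of the 131 with the same sign. Complete separation of DHT from vehicle arrays in all 3 tissues in the same direction was seen in 148 genes (0.712%), of which 43 were among the 188. With a symbol these were Zbtb16, G3bp2, Clip1, Usp2, Cdo1, Lman1, Ssr1 and Polr3d on the higher side and Hsd11b2, Mgst1 and Cacnb3 on the lower side.

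The number of genes called depended on single arrays. It lay between 31 and 325 when each of the 17 was dropped in turn. The count was 31 without forebrain vehicle array 2, 82 without forebrain vehicle array 1, and 72, 47 and 64 without forebrain DHT arrays 1, 2 and 3. It was 100 and 50 without prostate vehicle arrays 1 and 2, 62 without prostate DHT array 2 and 325 without skin DHT array 2. With prostate vehicle array 3 and skin vehicle array 1 both left out it was 209, of which 139 were among the 188. For 42 of the called genes described below these fits were followed gene by gene. All 42 kept their direction in each of these fits, and their highest adjusted p in them was 0.123 (limma). They were picked because they passed on these same arrays, so a kept direction gives no support. Fkbp5, Herpud1, Lman1 and Ssr1 passed in all 17, and Sostdc1 in the 16 that measured it.

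**Figure D2:**
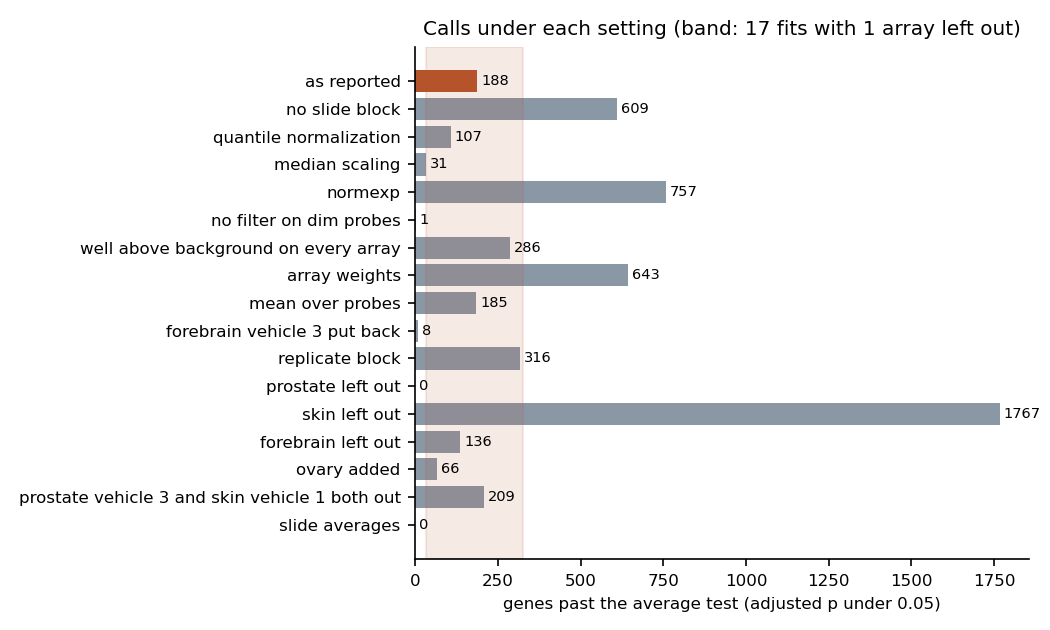
Number of genes past the average test (adjusted p under 0.05) under each setting of the processing, with the setting described in the text in rust. The shaded band spans the 31 to 325 genes called when 1 of the 17 arrays was left out.

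Zbtb16 was the gene with a symbol whose smallest tissue effect was the largest among the rises. It encodes a zinc finger transcription factor, also called PLZF, that is induced by steroid receptors. In prostate its level was -1.16, -0.60 and 0.45 with vehicle and 1.05, 0.94 and 0.91 with DHT. In skin the vehicle arrays stood at -1.71, -2.56 and -1.45 and the DHT arrays at -0.21, -0.79 and -0.28. Forebrain had -2.61 and -3.32 with vehicle and -1.94, -1.65 and -1.37 with DHT. The DHT arrays were the higher ones in each tissue with no overlap, and prostate vehicle array 3 came closest to the DHT arrays. The effects were 1.40 ± 0.37, 1.48 ± 0.37 and 1.23 ± 0.41 log2 units (SE) in prostate, skin and forebrain, and the average was 1.37 ± 0.25, or 2.58-fold (limma, adjusted p = 0.0238). The test of a difference between the tissues did not pass (adjusted p = 0.924). A second probe of Zbtb16 had effects of 1.43, 1.97 and 1.22. The average passed in 12 of the 17 fits that each dropped 1 array.

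Clip1 encodes a linker protein that binds the growing ends of microtubules, and its effects in the 3 tissues were nearly equal in size. Prostate had 1.29, 1.46 and 1.48 with vehicle and 1.95, 2.04 and 2.12 with DHT. Skin had 1.66, 1.74 and 1.82 against 2.69, 2.09 and 2.32, and forebrain 0.26 and 0.19 against 0.70, 1.05 and 1.14. The groups did not overlap in any tissue. The effects were 0.63 ± 0.18, 0.63 ± 0.18 and 0.73 ± 0.20, with an average of 0.66 ± 0.12, or 1.58-fold (adjusted p = 0.0238). On its second probe they were 0.49, 0.34 and 0.90.

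G3bp2, an RNA-binding protein of stress granules, also separated in every tissue. Its prostate levels were -1.55, -1.56 and -1.51 with vehicle and -1.12, -0.45 and -0.26 with DHT. In skin they were -2.69, -3.05 and -3.16 against -1.93, -2.28 and -2.38, and in forebrain -2.62 and -2.33 against -1.84, -1.83 and -1.85. The DHT arrays were higher throughout, with the widest spread among those of prostate. Effects of 0.93 ± 0.22, 0.77 ± 0.22 and 0.64 ± 0.25 gave an average of 0.78 ± 0.15, or 1.72-fold (adjusted p = 0.0288).

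Dnajb4, a co-chaperone of the Hsp40 family, had effects of 0.90 ± 0.26, 0.66 ± 0.26 and 0.89 ± 0.28 (average 0.82 ± 0.17, adjusted p = 0.0445). In prostate it stood at 0.60, 0.68 and 0.82 with vehicle and at 1.45, 1.64 and 1.70 with DHT, and in forebrain at -0.58 and -0.12 against 0.45, 0.60 and 0.55. Neither tissue showed overlap. In skin, vehicle levels of -0.58, -0.38 and -0.65 overlapped with DHT levels of 0.82, -0.41 and -0.02, since DHT array 2 lay below vehicle array 2. Each of these 4 genes had an unadjusted p under 0.05 in all 3 tissues (limma). They were picked by their smallest tissue effect on these same arrays, so this is no separate support. None passed the adjusted test of all 3 tissues.

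**Figure D3:**
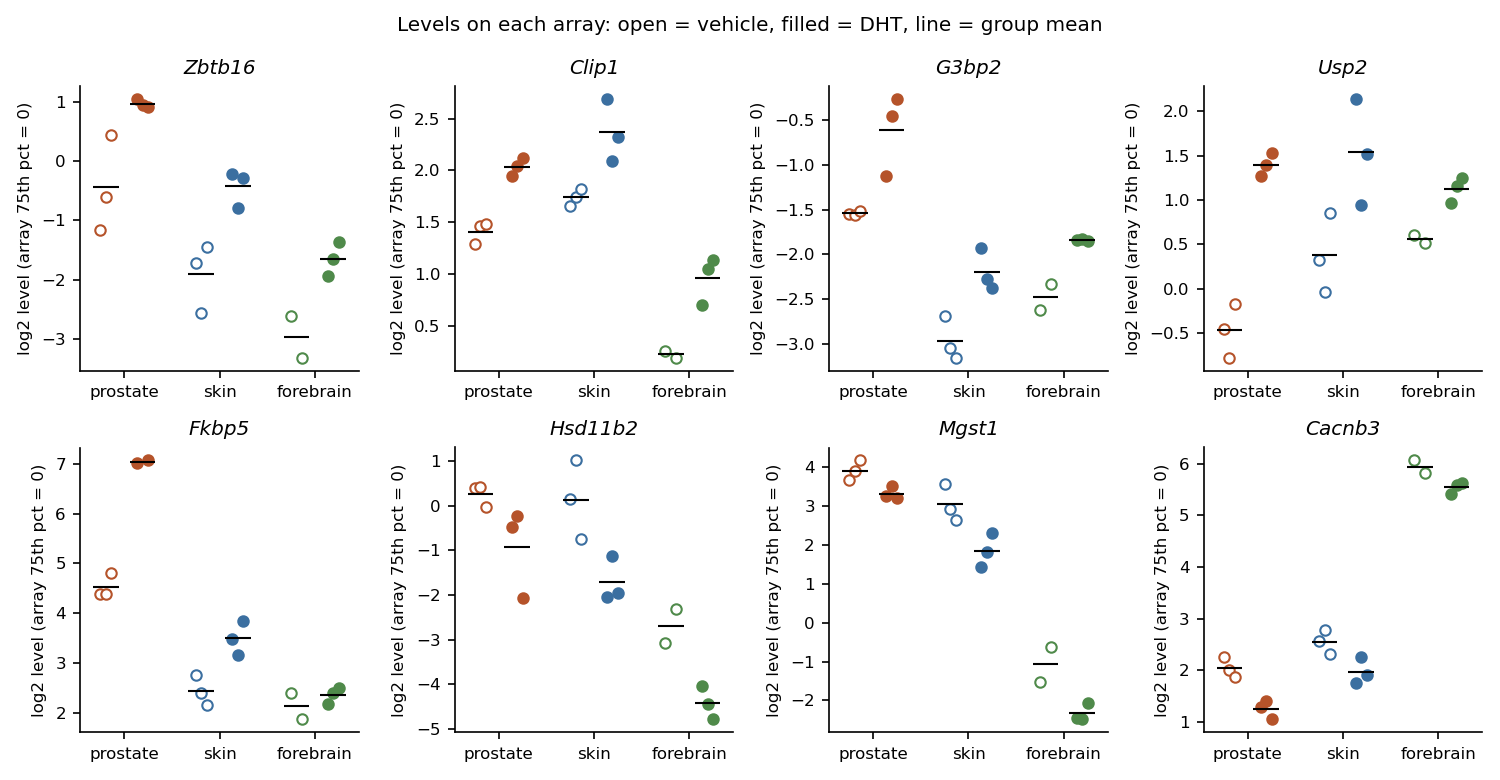
Level of 8 genes on each array (log2, with 0 at the 75th percentile of the array), by tissue, with open points for vehicle, filled points for DHT and lines at group means. The DHT arrays of Zbtb16, Clip1, G3bp2 and Usp2 lie above all vehicle arrays of their tissue, those of Hsd11b2, Mgst1 and Cacnb3 below, and those of Fkbp5 overlap with vehicle in forebrain.

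Usp2, a deubiquitinating enzyme, rose 2.26-fold on average. In prostate the vehicle arrays stood at -0.45, -0.78 and -0.17 and the DHT arrays at 1.27, 1.39 and 1.53. Skin had 0.32, -0.04 and 0.85 against 2.14, 0.95 and 1.52, and forebrain 0.61 and 0.52 against 0.97, 1.16 and 1.25. The groups stayed apart in every tissue, most narrowly in skin. The effect was 1.86 ± 0.28 in prostate, 1.16 ± 0.28 in skin and 0.51 ± 0.31 in forebrain, and the average 1.18 ± 0.19 (adjusted p = 0.0147). The difference between tissues did not pass (adjusted p = 0.0939). Usp2 passed in 16 of the 17 fits that each dropped 1 array.

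Fkbp5, the co-chaperone of steroid receptors that marks androgen and glucocorticoid action rose 2.40-fold on average (1.26 ± 0.16, adjusted p = 0.0107). No gene with a symbol had a smaller adjusted p, and Herpud1, Lman1, Ssr1 and Srm had the same one. It was unequal between tissues (adjusted p of the difference = 0.00441). Prostate levels were 4.38, 4.39 and 4.80 with vehicle and 7.02 and 7.07 on the 2 DHT arrays with a usable spot, an effect of 2.51 ± 0.26. Skin had 2.76, 2.40 and 2.15 against 3.47, 3.16 and 3.84, an effect of 1.05 ± 0.23. Forebrain had 2.40 and 1.86 against 2.17, 2.40 and 2.50, an effect of 0.22 ± 0.26. Prostate and skin arrays separated completely and those of forebrain overlapped. Other probes of Fkbp5 had averages of 1.56 and 1.22, with forebrain effects of 0.43 and 0.47. In ovary, which did not enter the choice of genes, its effect was 0.41 ± 0.32 (adjusted p = 0.815), and 0.053 against vehicle array 2 alone.

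The other rises chosen for their smallest tissue effect were led by prostate. Cdo1, the enzyme that oxidises cysteine on the way to taurine, had 1.80 ± 0.23, 0.48 ± 0.23 and 0.38 ± 0.26 in prostate, skin and forebrain, with no overlap in any tissue and an adjusted p of 0.0213 for the difference. Akap1, which anchors protein kinase A at mitochondria, had 1.69, 0.37 and 0.70. It was well above background on 2 of 3 skin arrays of each group. Spats2l had 1.49, 0.42 and 0.58, and 1.66, 0.21 and 1.13 on its second probe. The average of these 3 genes lay between 0.83 and 0.92 (adjusted p = 0.0218 for Cdo1 and 0.0238 for Akap1 and Spats2l).

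Rchy1, a ubiquitin ligase, Hexim1, an inhibitor of the elongation factor P-TEFb, Lysmd3, a membrane protein with a LysM domain, and Rab2a, a small GTPase of traffic between endoplasmic reticulum and Golgi, completed the set. Rchy1 had effects of 1.30 ± 0.25, 0.24 ± 0.25 and 0.87 ± 0.28 (adjusted p of the average = 0.0471). Hexim1 had 0.95, 0.31 and 0.42 and Lysmd3 0.98, 0.28 and 0.42. Rab2a was the most even of the 4, with 0.65 ± 0.16, 0.34 ± 0.16 and 0.51 ± 0.18 and an average of 0.50 ± 0.11 (adjusted p = 0.0481). In skin, DHT and vehicle arrays of all 4 overlapped, while in prostate and forebrain they did not.

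**Figure D4:**
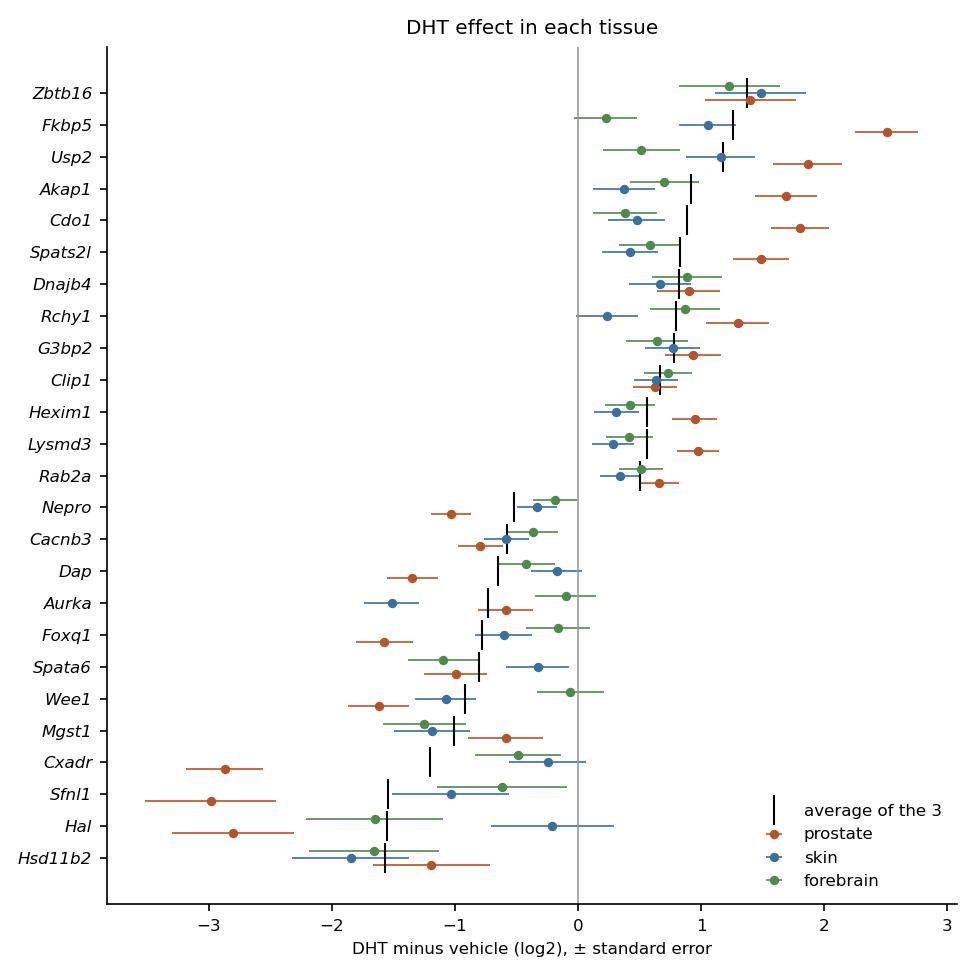
DHT effect (log2, ± standard error of limma) in prostate, skin and forebrain for the 12 rises and 12 falls with the largest smallest-tissue effect and for Fkbp5, ordered by the average (black bars). Zbtb16, Clip1, G3bp2 and Dnajb4 have similar effects in the 3 tissues, while the prostate effect lies far from the others for Fkbp5, Cdo1 and Cxadr.

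A RefSeq promoter (build GRCr8, 250 bases before to 50 after the gene's start) was matched for 15 of the 25 genes drawn in the plot of tissue effects. Zbtb16, Clip1, Dnajb4 and Hsd11b2 had no entry. The hexamer AGAACA, a core bound by steroid receptors, was found on either strand in 1 of the 15, Rchy1, and in 20.7% of all 33469 promoters. The palindrome of AGAACA facing TGTTCT with 3 bases between them was found in 0 of 15 and in 0.0149% of all. The G3bp2 promoter overlapped by 206 of its 300 bases with that of Uso1, a vesicle tethering factor. The 2 genes start 295 bases apart in opposite directions, and Uso1 was also called (average 0.56 ± 0.11, adjusted p = 0.0325; 1.45 in prostate, 0.16 in skin and 0.07 in forebrain). Rchy1 starts 181 kb away on the same chromosome. The E-box CACGTG was found in the G3bp2 window and in 6.42% of all promoters. The windows of G3bp2 (chr14:16216434-16216733, plus strand) and Rchy1 (chr14:16397283-16397582, plus strand) are shown because they hold the only matches among the 15, with capitals for the E-box in the first and for AGAACA, read on the other strand as TGTTCT, in the second.
G3bp2: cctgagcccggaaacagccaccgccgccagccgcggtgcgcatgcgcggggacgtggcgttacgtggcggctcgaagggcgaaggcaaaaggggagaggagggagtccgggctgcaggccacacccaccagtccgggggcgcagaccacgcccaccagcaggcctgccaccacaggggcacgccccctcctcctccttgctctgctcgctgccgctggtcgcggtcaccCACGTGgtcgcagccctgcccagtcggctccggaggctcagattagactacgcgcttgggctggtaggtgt
Rchy1: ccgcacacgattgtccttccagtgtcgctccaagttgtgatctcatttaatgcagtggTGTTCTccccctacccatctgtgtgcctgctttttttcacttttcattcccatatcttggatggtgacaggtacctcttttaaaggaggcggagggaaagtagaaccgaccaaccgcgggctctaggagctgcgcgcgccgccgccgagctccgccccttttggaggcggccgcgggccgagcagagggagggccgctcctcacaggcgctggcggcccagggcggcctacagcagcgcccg

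Hsd11b2 had the largest smallest-tissue effect among the falls, in a direction opposite to Zbtb16 but of like evenness. Its product inactivates corticosterone and so shields the mineralocorticoid receptor from it. In prostate it stood at 0.40, 0.42 and -0.04 with vehicle and at -0.48, -0.23 and -2.08 with DHT. Skin had 0.15, 1.01 and -0.76 against -2.05, -1.14 and -1.96, and forebrain -3.08 and -2.32 against -4.05, -4.45 and -4.79. All DHT arrays lay below the vehicle arrays of their tissue, in prostate with DHT array 3 far below the others. Effects of -1.19 ± 0.48, -1.85 ± 0.48 and -1.66 ± 0.53 gave an average of -1.57 ± 0.32, or 2.96-fold lower (adjusted p = 0.0397), and the difference between tissues did not pass (adjusted p = 0.706). The ovary effect was -0.86 ± 0.46 (adjusted p = 0.708). The forebrain fall lay beside the lower choroid plexus markers given above, whose part in it was not tested. Hsd11b2 had an average of -1.79 to -1.04 over all settings tried, and it passed in 16 of 33 of them and in 7 of the 17 fits that each dropped 1 array.

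Mgst1, a microsomal glutathione transferase, was lower in all 3 tissues. Its prostate levels were 3.66, 3.90 and 4.17 with vehicle and 3.25, 3.51 and 3.20 with DHT. Skin had 3.57, 2.92 and 2.64 against 1.44, 1.82 and 2.30, and forebrain -1.53 and -0.62 against -2.44, -2.49 and -2.07. No group overlapped, and the smallest gap was in prostate. The effects were -0.59 ± 0.31, -1.19 ± 0.31 and -1.25 ± 0.34, so prostate, the leading tissue for most genes, had the smallest (average -1.01 ± 0.21, or 2.01-fold lower, adjusted p = 0.0397).

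Cacnb3, a subunit of voltage-gated calcium channels, was the third fall with complete separation. In prostate it stood at 2.26, 2.0 and 1.87 with vehicle and at 1.30, 1.40 and 1.05 with DHT. Skin had 2.56, 2.79 and 2.31 against 1.76, 2.25 and 1.91, and forebrain 6.06 and 5.81 against 5.41, 5.59 and 5.62. The shifts were small beside the difference in level between forebrain and the other tissues. They were -0.80 ± 0.18, -0.58 ± 0.18 and -0.37 ± 0.20, with an average of -0.58 ± 0.12 (adjusted p = 0.0465).

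The remaining falls were less even. Sfnl1 had -2.99 ± 0.53 in prostate (2 usable vehicle arrays), -1.03 ± 0.47 in skin and -0.62 ± 0.53 in forebrain, and an adjusted p of 0.0488, close to the threshold. Cxadr, a cell adhesion protein of tight junctions, had -2.87 ± 0.31 in prostate against -0.25 ± 0.31 and -0.49 ± 0.35 in the other tissues, and its second probe had effects of 0.16 and 0.50 there, so that its same sign in 3 tissues rests on 1 probe. Hal, the enzyme that starts histidine breakdown, was not well above background on any prostate DHT array and was at least 1.72-fold lower there, with -0.21 ± 0.50 in skin and -1.65 ± 0.56 in forebrain, where 1 of 3 DHT arrays was well above background. Spata6, known for its part in sperm formation in mouse, was lower in prostate (-0.99 ± 0.25) and forebrain (-1.1 ± 0.28) with overlap in skin (-0.33 ± 0.25). Nepro and Dap fell mainly in prostate, by 1.03 and 1.35 on the log2 scale.

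Foxq1, a forkhead transcription factor, and the cell cycle kinases Aurka and Wee1 fell on average with near-zero values in forebrain. Foxq1 stood at 3.59, 3.86 and 3.39 in vehicle prostate and 1.70, 2.12 and 2.30 with DHT, and in skin at 1.11, 0.21 and 0.54 against -0.09, 0.13 and 0.02. Neither tissue overlapped, and the effects were -1.57 ± 0.23 and -0.60 ± 0.23, with -0.16 ± 0.26 in forebrain (average -0.78 ± 0.16, adjusted p = 0.0354). In ovary Foxq1 had an effect of -1.96 ± 0.28 (unadjusted p = 1.96e-04, adjusted p = 0.409), which did not pass over the 20750 genes tested there. Wee1, an inhibitor of the mitotic kinase CDK1, had -1.62 ± 0.25 in prostate, -1.08 ± 0.25 in skin and -0.06 ± 0.27 in forebrain, where its 2 other probes had 0.49 and 0.72. Aurka, a mitotic kinase, stood at -0.27, -0.72 and -0.31 in vehicle skin and -2.43, -1.79 and -1.62 with DHT, without overlap (-1.51 ± 0.22). Its adjusted p in skin was 0.0411 in the limma fit over all 3 tissues, while 0 genes passed in skin fitted alone. Aurka had -0.59 ± 0.22 in prostate and -0.10 ± 0.25 in forebrain. The tissues differed for Foxq1 (adjusted p = 0.0357), Wee1 (0.0346) and Aurka (0.0320).

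Just inside the threshold with the same sign in all 3 tissues lay Sfnl1 and Polr3d, a subunit of RNA polymerase III (average 0.45 ± 0.10, adjusted p = 0.0499). Just outside lay Fgf18, a fibroblast growth factor (0.79 ± 0.17, adjusted p = 0.0505), and Abo3 (1.63 ± 0.36, adjusted p = 0.0511).

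Several of the largest averages were uneven between tissues. Ces1e, a carboxylesterase, had the largest average rise with a symbol (1.83 ± 0.33, adjusted p = 0.0238). Its levels were -4.12, -3.85 and -2.61 against -0.64, -0.82 and 0.02 in prostate and -3.55, -3.14 and -2.94 against -0.56, -1.87 and 0.52 in skin. Both tissues separated completely, with effects of 3.05 ± 0.49 and 2.57 ± 0.49, while forebrain had -0.13 ± 0.55. Nppc, which encodes C-type natriuretic peptide, was at least 4.08-fold higher in prostate, where no vehicle array was well above background, and had -0.17 ± 0.45 in skin and 0.65 ± 0.50 in forebrain (adjusted p of the average = 0.0347).

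Sostdc1, a secreted antagonist of BMP and Wnt signals, had the largest average fall with a symbol (-2.55 ± 0.39, adjusted p = 0.0171). It came almost wholly from forebrain, where the levels were 1.82 and 3.68 with vehicle and -3.74, -4.10 and -4.41 with DHT (-6.77 ± 0.57). Only 1 prostate vehicle array had a usable spot. Krt18, a keratin of simple epithelia, had -3.49 ± 0.49 in forebrain, -2.25 ± 0.44 in skin and 0.46 ± 0.49 in prostate (average -1.76 ± 0.31, adjusted p = 0.0238). A second probe of Krt18 had -0.17 in prostate, -1.92 in skin and -2.83 in forebrain, so the sign in prostate differed between probes. Both genes belong to the 13 choroid plexus genes that lay lower on the forebrain DHT arrays, and the part of that content in their fall was not tested.

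The genes given whatever their test included further targets of steroid receptors. Tsc22d3, the anti-inflammatory leucine zipper protein GILZ, separated in prostate (4.40, 5.05 and 5.60 against 6.34, 5.79 and 6.03) and in skin (3.64, 4.02 and 4.08 against 4.40, 4.35 and 4.35). In forebrain the effect was -0.29 ± 0.28, and the average of 0.40 ± 0.17 did not pass (adjusted p = 0.302). A second probe of Tsc22d3 had 0.71, 0.40 and 0.19 in prostate, skin and forebrain, so the sign in forebrain differed between probes. Sgk1, a kinase that regulates ion transport, averaged -0.06 ± 0.21, the clock gene Per1 0.38 ± 0.21 and the transcription factor gene Klf9 0.06 ± 0.16 (adjusted p = 0.940, 0.458 and 0.919). Klf9 had -0.56 ± 0.24 in prostate and 0.62 ± 0.24 in skin.

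Prr5l, a partner of the kinase complex mTORC2, fell on average (-0.63 ± 0.12, adjusted p = 0.0238) without a shift in prostate, where the effect was 0.04 ± 0.17. In skin it stood at -0.94, -0.92 and -0.55 with vehicle and at -2.26, -2.11 and -2.01 with DHT, and in forebrain at -1.38 and -1.60 against -2.10, -2.10 and -2.13. Skin (-1.32 ± 0.17, adjusted p = 0.0246 in the limma fit over all 3 tissues) and forebrain (-0.62 ± 0.19) separated completely. Pdk4, a kinase that restrains glucose oxidation, did not enter the average, because it was not well above background on any prostate or forebrain array. In skin it stood at -4.69, -2.87 and -1.95 with vehicle and at 1.09, -0.45 and 0.52 with DHT, without overlap.

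Across the list of steroid receptor targets, 2 of 19 measured genes passed, Fkbp5 and Zbtb16, both higher, and the median average effect was 0.02, equal to the 0.02 of all genes. The lists were chosen with earlier results of these data known. Of 9 receptor chaperones and co-chaperones 9 had a positive average (median 0.20), against 52.8% of all genes tested, and Fkbp5 was the one that passed (0.573% of all genes passed as higher). Only 3 of the 9 had the same sign in all 3 tissues, against 23.2% of all genes tested. In skin 5 of the 9 effects were positive, against 10731 of all 20777 genes. Of 8 genes of androgen and steroid metabolism 1 passed, Hsd11b2, as lower, against 0.332% of all genes. The glucocorticoid receptor gene Nr3c1 (-0.07) and the mineralocorticoid receptor gene Nr3c2 (0.04) had averages near 0 and did not pass.

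Heat shock genes gave 2 calls of 15 measured, both higher, against 0.573% of all genes, in a list added after values had been seen. Besides Dnajb4 this was Hsph1, a nucleotide exchange factor of Hsp70. It stood at 0.21, 0.23 and 0.15 against 1.20, 0.73 and 1.56 in prostate and at 1.11 and 1.27 against 1.98, 1.92 and 2.06 in forebrain. These groups did not overlap, and the skin effect was 0.20 ± 0.19 (average 0.65 ± 0.13, adjusted p = 0.0354). Higher calls in the list numbered 2 with quantile normalization, 0 with median scaling and 5 with normexp, against 71, 24 and 397 of all 20777 genes.

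Genes of the endoplasmic reticulum (ER), where secretory proteins fold, gave calls through prostate. Of 20 ER folding and stress genes 5 passed, all higher, against 0.573% of all genes. They were the calcium-binding chaperone gene Calr, Creld2, the disulfide isomerase gene Pdia4, and Herpud1 and Sel1l, which serve the breakdown of misfolded proteins. The median average effect of the list was 0.53, with 1.40 in prostate, 0.04 in skin and 0.02 in forebrain, against 0.07, 0.02 and -0.05 over all genes. Creld2 stood at 2.42, 2.47 and 3.14 with vehicle and 6.27, 6.55 and 6.41 with DHT in prostate (3.73 ± 0.30), but had -0.49 ± 0.30 in skin and 0.19 ± 0.33 in forebrain. The effects in skin were larger for Herpud1 (0.63 ± 0.17, from 2.13, 2.44 and 2.11 to 3.09, 2.57 and 2.91) and Sel1l (0.55 ± 0.16, from -1.50, -1.56 and -1.75 to -1.01, -1.13 and -1.03), whose skin groups did not overlap. A second probe of Herpud1 had 0.12 in skin. The forebrain groups of both genes overlapped. The median of the list in skin was below 0 under median scaling (-0.04) and with normexp (-0.02). Higher calls numbered 3 with quantile normalization, 1 with median scaling and 8 with normexp, against 71, 24 and 397 of all 20777 genes. In the fit described, 6 of the 20 had the same sign in all 3 tissues, against 23.2% of all genes tested.

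A related list of ER entry and vesicle traffic, added after values had been seen, had a positive average in 24 of 24 genes, against 52.8% of all genes tested, and 7 passed as higher, against 0.573%. Lman1, a cargo receptor, had 1.92 ± 0.18, 0.68 ± 0.18 and 0.16 ± 0.20 in prostate, skin and forebrain. Its levels were 1.57, 1.19 and 1.40 against 2.36, 1.93 and 1.92 in skin and 0.36 and 0.43 against 0.53, 0.50 and 0.67 in forebrain. It separated in all 3 tissues, as did Ssr1, a subunit of the translocon-associated complex (1.62 ± 0.16, 0.31 ± 0.16 and 0.19 ± 0.17). A second Lman1 probe had -0.08 in forebrain. Srprb, a subunit of the receptor for signal recognition particles, had 0.91, 0.19 and 0.50. Ssr3, Kdelr2 and Uso1 passed with skin effects between -0.01 and 0.29, and Rab2a is described above. The median effect of the list was 0.82 in prostate, 0.13 in skin and 0.09 in forebrain. Of the 24 genes 8 had the same sign in all 3 tissues, against 23.2% of all genes tested. Higher calls numbered 4 with quantile normalization, 2 with median scaling and 10 with normexp, against 71, 24 and 397 of all 20777 genes.

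**Figure D5:**
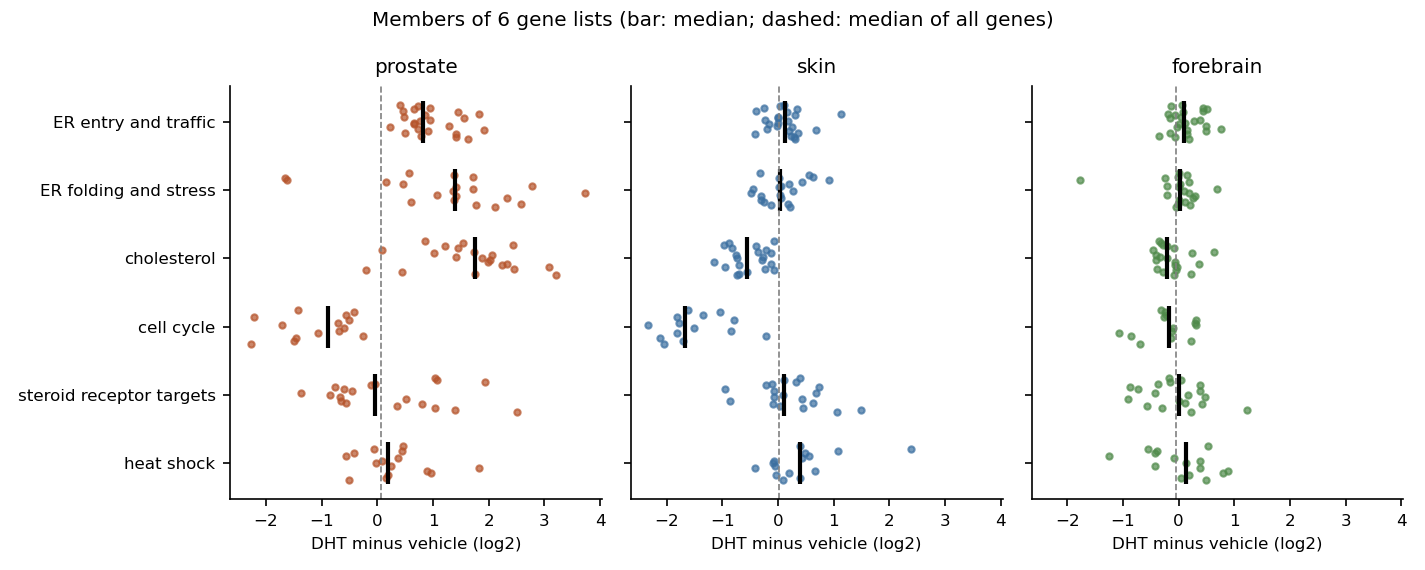
DHT effects (log2) of the measured members of 6 gene lists in prostate, skin and forebrain, with bars at list medians and dashed lines at the median of all genes. ER and cholesterol genes lie to the right in prostate alone, with cholesterol genes to the left in skin, and cell cycle genes lie to the left in prostate and skin.

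In the promoters of called genes with a symbol (47 with an entry), the ER stress element, CCAAT followed after 9 bases by CCACG, was found in those of Calr and Creld2, against 22 of all 33469 promoters (0.0657%). The heat shock element, GAA, TTC and GAA with 2 bases between neighbours, was found in that of Hsph1 and in 0.798% of all. The steroid receptor hexamer AGAACA was found in 4 of the 47, against 20.7% of all promoters. Its palindrome was found in 0 of 47, against 0.0149% of all, and the E-box CACGTG in 4 of 47, against 6.42%. Each motif was searched on both strands, and a match is a description of the letters only. The 3 ER stress and heat shock elements lie on the other strand of the windows shown. Capitals mark them, and in the first also an E-box, which does not overlap the heat shock element. They lie at chr12:10427118-10427417 (Hsph1), chr19:40213117-40213416 (Calr) and chr7:121789134-121789433 (Creld2), all on the plus strand.
Hsph1: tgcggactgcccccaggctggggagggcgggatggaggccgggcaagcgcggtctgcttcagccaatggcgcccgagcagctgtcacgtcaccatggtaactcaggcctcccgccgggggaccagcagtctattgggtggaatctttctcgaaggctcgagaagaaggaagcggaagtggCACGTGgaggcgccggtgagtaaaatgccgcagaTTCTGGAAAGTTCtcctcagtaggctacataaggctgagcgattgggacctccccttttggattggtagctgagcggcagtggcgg
Calr: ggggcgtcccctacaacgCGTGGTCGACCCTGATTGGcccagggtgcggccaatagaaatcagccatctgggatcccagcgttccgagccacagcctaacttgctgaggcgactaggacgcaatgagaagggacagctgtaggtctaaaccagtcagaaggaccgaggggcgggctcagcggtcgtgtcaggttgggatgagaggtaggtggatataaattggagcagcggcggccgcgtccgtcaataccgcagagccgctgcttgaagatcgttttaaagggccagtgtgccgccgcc
Creld2: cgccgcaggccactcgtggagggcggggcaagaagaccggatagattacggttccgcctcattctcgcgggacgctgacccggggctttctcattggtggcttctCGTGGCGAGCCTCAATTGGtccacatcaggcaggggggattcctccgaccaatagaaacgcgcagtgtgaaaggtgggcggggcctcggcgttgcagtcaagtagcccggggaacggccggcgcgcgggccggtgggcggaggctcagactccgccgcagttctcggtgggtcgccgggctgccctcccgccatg

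Cholesterol synthesis genes had averages that combined effects of opposite sign. Of 21 genes 3 passed, all higher and all enzymes of the pathway: Hmgcs1, Mvd and Fdft1. Over all genes 0.573% passed as higher. The median was 1.75 in prostate, where 17 genes passed upward, against 5.14% of all genes. In skin it was -0.55, and 0 of 21 effects there were positive, against 10731 of all 20777 genes. In that tissue 0 of the 21 passed as lower (limma, 9 at an unadjusted p under 0.05, against 3818 of all genes). Hmgcs1 stood at 2.47, 2.67 and 3.14 against 6.31, 5.44 and 6.17 in prostate and at 4.23, 3.91 and 3.84 against 3.01, 3.28 and 3.5 in skin. The DHT arrays were all higher in prostate and all lower in skin, with effects of 3.21 ± 0.24 and -0.73 ± 0.24. The tissues differed in 18 of the 21 genes (limma, moderated F test), against 7.1% of all genes. Higher calls on the average numbered 1 with quantile normalization, 0 with median scaling and 3 with normexp, against 71, 24 and 397 of all 20777 genes. Of adipocyte markers, 6 of 6 tested had a positive prostate effect, against 11698 of all 20777 genes. Of the 6, 4 passed there as higher, against 5.14% of all genes. The mean prostate level over 10 markers was 0.02 to 0.45 with vehicle and 0.92 to 1.39 with DHT. Their part in the prostate values was not tested.

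Cell cycle genes were lower as a list in 2 tissues. The average was negative in 14 of 14 genes (median -0.87), while 52.8% of all genes tested had a positive one. Of the 14, 1 passed, Aurka, against 0.332% of all genes that passed as lower. Medians were -0.89 in prostate, -1.66 in skin and -0.18 in forebrain. No effect was positive in prostate or skin, against 11698 and 10731 of all 20777 genes. The same sign in all 3 tissues was found for 10 of the 14, against 23.2% of all genes tested. The cyclin gene Ccna2 had -2.26, -2.04 and -0.70, the ribonucleotide reductase gene Rrm2 -2.22, -1.82 and -0.27 and Cdk1 -1.07, -1.81 and -1.07. Their averages did not pass (limma, adjusted p = 0.0978, 0.141 and 0.113). On another probe Rrm2 had -1.68, -1.20 and 0.31 in prostate, skin and forebrain. Another Ccna2 probe, which did not pass the filter on dim probes, had -2.07, -1.53 and 0.78. The sign in forebrain, and with it the same sign in all 3 tissues, thus differed between probes of both genes. On skin DHT array 1 both Ccna2 (-1.60, against 1.1 and 0.34) and Cdk1 (0.50, against 3.35 and 2.51) lay below the other DHT arrays, and the part of that array in the list's values was not tested. With background correction by normexp, 10 of the 14 passed as lower, against 360 of all 20777 genes under the same correction. Quantile normalization and median scaling each left 0 of the 14, against 36 and 7 of all genes.

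Ovary of intact females, given 10 mg/kg DHT or vehicle for 16 h at 12 weeks, served as a tissue that had no part in choosing these genes. There, 0 of 20750 genes passed (limma, 1503 at an unadjusted p under 0.05). Of the 82 rises with the same sign, 49 had a positive effect in ovary, against 44.5% of all genes, and 54 lay above the median of all genes. Of 48 falls measured there, 22 had a negative one, against 55.5% of all genes, and 19 lay below the median of all genes. The median ovary effect was 0.05 for the rises, 0.04 for the falls and -0.05 for all genes, so rises and falls were not set apart. On ovary vehicle arrays 1 and 3 nearly every probe counted as above background (96.5% and 97%), and their interquartile ranges were 3.78 and 3.20 log2 units, against 6.16 on vehicle array 2. Zbtb16 had -0.36 ± 0.75 in ovary and 1.54 against vehicle array 2 alone, so its direction turned with the vehicle arrays used. Usp2 had -0.27 ± 0.28, and -0.19 against vehicle array 2.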

How the data were processed

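Total RNA was labelled with Cy3 and hybridised to 1-colour Agilent rat arrays with 41012 probes (design build rn4, per the file headers). The deposited processed intensity of each spot was background-subtracted and spatially detrended by Agilent Feature Extraction, version 10.5.1.1 per the file headers and 10.1 per the submitters' processing notes, which also name limma. The values are not normalized between arrays, and no spot was saturated.

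Each array was scaled to its 75th percentile on the log2 scale and outlier spots were left out. Probes well above background on at least 3 arrays of each tissue were kept, with 1 probe per gene, that of highest mean level. Symbols were matched by accession to RefSeq GRCr8 (10813 probes, 8945 symbols), and 30199 probes stayed unnamed. The average effect was fitted in limma 3.58.1 (R 4.3.3) over 17 arrays with slide as a random block (correlation 0.137, 11 residual degrees of freedom), and Benjamini-Hochberg adjustment ran over all genes tested. The difference between tissues is the moderated F test of the same fit. Where groups were not well above background on any array, a lower bound of the fold is given. The scripts were tested on simulated data. The number of arrays limits the precision.

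The members and gene lists were chosen with earlier results of these data known, and so they support nothing by themselves. Genes named are the 12 rises and 12 falls with the largest smallest-tissue effect among called genes of 1 sign, the 5 and 5 with the largest average, a fixed set of steroid targets, and up to 4 per list. The choroid plexus, ER entry and heat shock lists, and Polr3d, Srm, Pdia4, Fgf18 and Abo3, were taken up after values had been seen. Normexp used median spot and background signals with an offset of 50, since the files used here hold no mean signal. Same-numbered DHT and vehicle arrays of a tissue did not deviate together (median correlation of deviations -0.21 over 8 pairs), so the numbers were not used as pairs. Alternatives in scaling, background, filter, block and arrays used were also fitted.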

Additional observations from a re-analysis of the deposited data

Results flagged for a closer look

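The DHT effect differed between prostate, skin and forebrain in 1476 of the 20777 genes tested (moderated F test of limma, adjusted p under 0.05). Among the genes described, the difference passed where prostate led the rises: Hmgcs1 (adjusted p = 5.08e-05), Mvd (1.15e-04), Creld2 (1.46e-04), Calr (4.92e-04), Ssr3 (0.00198), Nppc (0.00206), Herpud1 (0.00209), Ssr1 (0.00209), Lman1 (0.00225), Fdft1 (0.00280), Fkbp5 (0.00441), Sel1l (0.0129) and Cdo1 (0.0213). Ces1e, high in prostate and skin, had 0.0262. Among the falls the difference passed for Cxadr (0.00353), Foxq1 (0.0357), Dap (0.0363) and Wee1 (0.0346), which were lowest against vehicle in prostate, for Aurka (0.0320) and Prr5l (0.00894), which were so in skin, and for Sostdc1 (0.00198) and Krt18 (0.00801), which were so in forebrain.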

How the results depend on the processing

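Against 188 genes called on the average (119 higher, 69 lower, 131 of 1 sign) and 1476 that differed between tissues, the counts moved as follows. Without the slide block there were 609 (313 higher, 296 lower, 449 of 1 sign), with 872 differing. Quantile normalization gave 107 (71, 36, 80), median scaling 31 (24, 7, 19) and normexp 757 (397, 360, 561), with 382 differing under normexp. The share of higher calls was 63.3% in the text, 51.4% without the slide block, 77.4% with median scaling and 52.4% with normexp. Median scaling moved the forebrain median of all genes from -0.05 to 0.06. No filter left 1 call (1, 0, 1), with 497 differing, and requiring every array gave 286, 120 of them lower and 209 of 1 sign. Array weights gave 643 (390, 253, 432), with 5073 differing and 52 genes past an unadjusted 0.05 in each tissue. With forebrain vehicle array 3 put back there were 8 (8, 0, 7), with 272 differing. The replicate block gave 316 (186, 130, 235), with 488 differing, but the numbers do not pair the samples. Without prostate there were 0 (0, 0; 1649 at an unadjusted p under 0.05) and without skin 1767 (964, 803). Without forebrain 45 were lower. Adding ovary gave 66 (44, 22), and averages per slide gave 0 (0, 0; 3111 unadjusted, limma). Leaving out 1 array gave 31 to 325 calls, 25 to 158 higher, 6 to 167 lower, 20 to 246 of 1 sign, 584 to 1970 differing, and 18 to 62 past an unadjusted 0.05 in each tissue; 0 passed the adjusted test in each of these fits.

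Without prostate the average turned to -0.13 for Creld2, -0.40 for Hmgcs1 and -0.30 for Mvd on the same probes. For Cxadr it turned to 0.33 because another probe then had the highest mean level; the probe described in the text gave -0.40. Klf9, which did not pass, turned to -0.23 without skin and ranged from -0.029 to 0.14 with 1 array left out. Sgk1, near 0, turned to 0.0098 with normexp, 0.064 with array weights, 0.13 with forebrain vehicle array 3, 0.20 without forebrain, 0.049 with ovary and 0.027 without prostate vehicle array 3 and skin vehicle array 1 (chosen after seeing the data), and ranged from -0.18 to 0.033. Fitted alone, skin gave 0.16 for Cxadr on that other probe (-0.25 on the one in the text) and forebrain 0.010 for Calr. The cause of the other shifts was not tested. Of the 42 called genes followed, 38 kept 1 direction under every alternative, but they were picked because they passed on these same arrays.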
